A study of Mus musculus with 30 samples.

Results

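The Hox genes code for homeodomain transcription factors, and in the mouse they stand in 4 clusters, Hoxa, Hoxb, Hoxc and Hoxd, on separate chromosomes. Within a cluster the genes are numbered from 1 to 13 by paralog group, so that Hoxa13, Hoxc13 and Hoxd13 are closer relatives of each other than of their neighbours. The genes at the low-numbered end act in the head and anterior trunk of the embryo. Those at the high-numbered end, the posterior genes of groups 9 to 13, act in the hind part of the body, the genital bud and the limb, where groups 11 and 13 of the Hoxa and Hoxd clusters are known for shaping the middle and the most distal segments. Adult cells keep part of the Hox pattern of the body site they come from, in skin fibroblasts above all, and Hoxc13 is also known from hair and nail formation.

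Every gene of the deposited tables whose symbol is Hox followed by a cluster letter from a to d and a paralog number was taken, which gave 38 of 20321 genes (11 Hoxa, 10 Hoxb, 9 Hoxc and 8 Hoxd). Their RNA was followed in 30 mice, each giving digit 3 of 1 hindlimb. Digits were collected at 5 times within a day of amputation (0 h, 3 h, 6 h, 12 h and 24 h) and at 4 later times (3 d, 7 d, 14 d and 21 d). There were 3 mice at each time and 6 at 7 d. All were male adult C57Bl/6 mice of 9 to 10 weeks, and in each at most 33% of the terminal phalanx (P3) had been cut off, a loss from which the tip regrows. The 0 h digits were the reference. The sample titles carry dates in July to August for 16 mice and November to January for 14 mice, and what these dates mark is not given. All mice of 3 h and 12 h have the earlier dates and all of 21 d the later ones, and the 3 left feet of the series are all at 7 d. The digit holds skin, nail, bone, vessels and nerve in 1 sample. Fewer cells of a type and less RNA per cell therefore cannot be told apart.

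Sequencing gave 3167625 to 16277816 expected counts per mouse, with medians of 5083528 for the earlier and 9836324 for the later dates. Of these, 499 to 6162 per mouse fell on the 38 Hox genes. The markers of the labelled tissue were present, with keratinocyte, fibroblast, osteoblast, leukocyte, endothelial and Schwann cell genes detected in most or all mice and no listed marker at 0 in all 30.

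What the genes share is the homeobox, the 180 bases that code for the DNA-binding homeodomain. The homeoboxes of 4 posterior members, the group 13 genes detected in the digit and Hoxd11, are shown 5′ to 3′ in the strand of the gene, with the bases in capitals coding the invariant stretch of the third helix that lies in the major groove of the DNA. They come from GENCODE M21 on GRCm38, the build named for the files as mm10. Hoxd13 (homeobox at chr2:74669930-74670109, + strand) and Hoxd11 (chr2:74683917-74684096, + strand) lie at the posterior end of the Hoxd cluster. Hoxa13 (chr6:52258928-52259107) lies on the - strand, and Hoxc13 (chr15:102927210-102927389) on the + strand. Each of the 4 homeoboxes lies inside 1 coding exon.
Hoxd13: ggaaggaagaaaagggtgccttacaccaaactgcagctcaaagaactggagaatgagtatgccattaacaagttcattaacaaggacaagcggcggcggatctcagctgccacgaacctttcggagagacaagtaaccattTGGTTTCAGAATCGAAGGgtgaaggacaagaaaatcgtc
Hoxc13: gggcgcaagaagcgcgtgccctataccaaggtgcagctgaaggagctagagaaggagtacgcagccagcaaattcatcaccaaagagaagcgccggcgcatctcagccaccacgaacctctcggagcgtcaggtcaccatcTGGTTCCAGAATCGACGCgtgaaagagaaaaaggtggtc
Hoxa13: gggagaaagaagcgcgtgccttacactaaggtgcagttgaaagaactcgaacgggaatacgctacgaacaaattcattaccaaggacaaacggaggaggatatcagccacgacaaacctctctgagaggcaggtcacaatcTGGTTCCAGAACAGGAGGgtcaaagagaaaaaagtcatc
Hoxd11: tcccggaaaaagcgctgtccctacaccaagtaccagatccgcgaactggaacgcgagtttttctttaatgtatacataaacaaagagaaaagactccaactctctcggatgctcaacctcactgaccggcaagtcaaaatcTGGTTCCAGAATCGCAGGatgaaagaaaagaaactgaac
Even in this most alike stretch the group 13 members differ enough to be told apart by reads of 65 bases. Hoxa13 and Hoxc13 share 77.2% of the 180 bases, Hoxa13 and Hoxd13 73.9%, and Hoxc13 and Hoxd13 75%. Over all members, the 39 pairs of the same paralog group shared 67.2% to 93.9% (median 80.6%), against a median of 60.6% over the 664 pairs of different groups. With up to 2 mismatches, 1.66% of the 65-base windows of Hoxa3, 0.606% of Hoxb3 and 0.556% of Hoxd3 also matched another Hox transcript, and no window of the other 35 genes did. Reads from overlapping transcripts are a separate matter. Of the exon bases counted for Hoxa7, 28.8% lie opposite the antisense gene Hoxaas3, and of those for Hoxd11, 23.9% are shared with Gm28309 on the same strand. Other members overlap as well. Antisense genes lie opposite 35% of Hoxa11 (Hoxa11os), 25.5% of Hoxa3, and 63.9% of Hoxb3 and 58.5% of Hoxb2 (both Hoxb3os). On the same strand, Hoxd3 shares 93.6% (Gm28230 and Hoxd4) and Hoxc10 8.7% (Hoxc5). Several further members have smaller overlaps. Hoxd13, Hoxa9, Hoxc13 and Hoxb7 have no such overlap. The search of windows was among Hox transcripts alone, so that reads shared with other genes were not tested. Expected counts were whole in 63.3% of mice for Hoxc13, 66.7% for Hoxa9, 86.7% for Hoxd13 and 100% for Hoxb7. Whether counting used the strand is not stated, so that reads from Hoxa7 and Hoxaas3, or from the other antisense pairs, cannot be told apart there. The stretches that Hoxd11, Hoxd3 and Hoxc10 share are on 1 strand and cannot be assigned with either setting.

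The adult digit held transcripts of the posterior end of the clusters above all. In transcripts-per-million units (TPM, a level per transcript length, relative to all genes of a mouse), the 38 genes summed to 137 to 412 per mouse, with a median of 332. Groups 9 to 13 made up 75.8% of this sum in the median mouse (63.0% to 86.3%), groups 4 to 8 22.9%, and groups 1 to 3 0.913%. By cluster, the median shares were 45.3% for Hoxc, 36.9% for Hoxa, 8.80% for Hoxd and 6.32% for Hoxb.

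**Figure D1:**
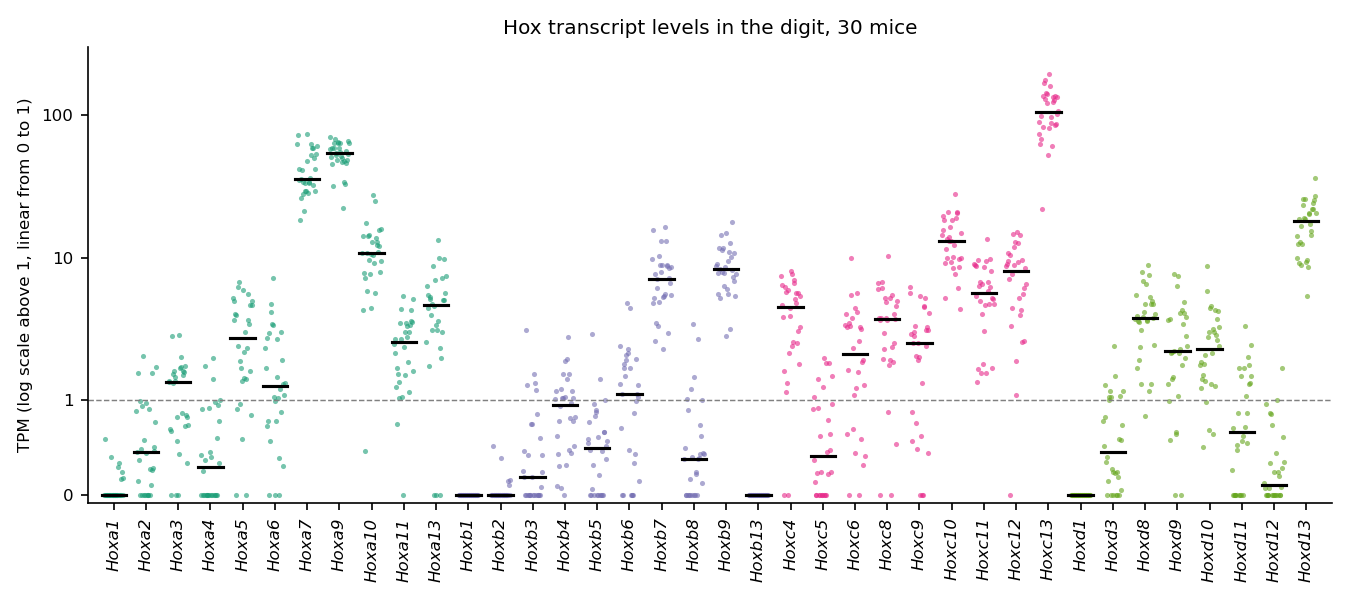
Level of each of the 38 Hox genes in TPM, on a log scale above 1 and a linear one from 0 to 1, with 1 point per mouse (30 mice), the median as a bar, colours by cluster and a dashed line at 1 TPM. Hoxc13 has the highest median, at 105 TPM, and Hoxb1, Hoxb13 and Hoxd1 sit at 0 in every mouse.

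A median of at least 1 TPM, taken here as expressed, was reached by 23 of the 38 genes. These were 8 of 11 Hoxa, 3 of 10 Hoxb, 8 of 9 Hoxc and 4 of 8 Hoxd genes, or 13 of 16 in groups 9 to 13, 9 of 14 in groups 4 to 8 and 1 of 8 in groups 1 to 3. Just inside the limit stood Hoxb6, with a median of 1.10 TPM, and just outside it Hoxb4, with 0.955. Of the other genes of groups 1 to 3, none but Hoxa3, at a median of 1.33 TPM, was past the limit. Hoxb1, Hoxb13 and Hoxd1 had no count in any mouse, which allows a level of up to 0.0139 CPM (counts-per-million units, at 3 counts over all libraries and counting error only).

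Hoxc13 was the most abundant transcript, at 22.0 to 195 TPM with a median of 105. Hoxa9, a posterior gene also known from blood cell progenitors, followed at 22.3 to 70.4 TPM (median 54.1), and Hoxa7 at 18.4 to 73.5 (median 35.8). Together these 3 genes held 64.3% of the Hox TPM in the median mouse and 53.6% to 72.4% over all mice. The order of these levels was clear at the top, with Hoxc13 above Hoxa9 in 28 of 30 mice, Hoxa9 above Hoxa7 in 24 and Hoxa7 above Hoxd13 in 27.

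Below these came Hoxd13, the most distal limb gene of its cluster, at 5.42 to 36.1 TPM (median 17.9). Hoxc10, a gene of the lumbar and hindlimb level, had a median of 13.1 TPM and Hoxa10 of 10.7. The neighbours in this stretch of the order traded places, with Hoxd13 above Hoxc10 in 18 of 30 mice and Hoxc10 above Hoxa10 in 18. Hoxb9 (median 8.30 TPM), Hoxc12 (8.03), Hoxb7 (7.13), Hoxc11 (5.62) and Hoxa13 (4.68) did not separate either, and Hoxc12 lay above Hoxb7 in 13 mice and below it in 17. Of the 3 group 13 genes that were detected, Hoxc13 thus stood far above Hoxd13, and Hoxd13 above Hoxa13. The limb genes of group 11 were low, with medians of 2.58 TPM for Hoxa11 and 0.665 for Hoxd11.

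The question put to the time course was which Hox levels moved while the digit tip healed and regrew. Counts were set to CPM with TMM normalization and tested with edgeR's quasi-likelihood test over 13793 genes, of which 28 were Hox genes that passed the filter on low counts. A gene was called at a Benjamini-Hochberg adjusted p under 0.05. Over all 9 times, 2 of the 28 Hox genes (7.14%) were called, Hoxd13 with an adjusted p of 0.000704 and Hoxa9 with 0.0115, beside 9.01% of all genes tested. The share of called Hox genes was near that of all genes. At an unadjusted p under 0.05 in the same edgeR test, the Hox share was lower, with 2 of 28 (7.14%) against 24.1% of all genes. The authors' average TPM per time (plus 1) spanned a median of 2.07-fold between the highest and lowest time over the 28 genes, against 1.74-fold over all genes tested. Such a span also holds the spread between mice, since most averages rest on 3 mice. Some of the 28 genes had few counts, such as Hoxb8 with a median of 3.00 per mouse. The span therefore cannot tell whether Hox genes moved more than others.

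Against 0 h, no Hox gene was called by edgeR 3 h after amputation (background 0.254% of all genes), at 6 h (0.189%), 12 h (0.167%), 24 h (0.493%), 3 d (0.551%) or 14 d (1.61%). At an unadjusted p under 0.05 there were 2 of the 28 Hox genes at 3 h (7.14%, against 10.9% of all genes), 4 at 12 h (14.3% against 7.67%), 2 at 3 d (7.14% against 6.66%) and 2 at 14 d (7.14% against 8.91%). At 6 h and 24 h there were 0, against 7.24% and 9.41% of all genes, and DESeq2 with its adjusted p called 0 at each. Hoxa9 was called at 7 d, as the lone Hox gene beside 2.34% of all genes, and Hoxd13 at 21 d, beside 1.94%. When the 4 times from 3 h to 24 h were set against 7 d, 14 d and 21 d, Hoxd13 and Hoxd11 were called, both higher at the late times, or 7.14% of the Hox genes beside 15.4% of all genes. At an unadjusted p under 0.05 in edgeR, this comparison held 5 of the 28 Hox genes (17.9%), against 29.6% of all genes. Hoxd11 had passed the filter on low counts through late mice alone.

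**Figure D2:**
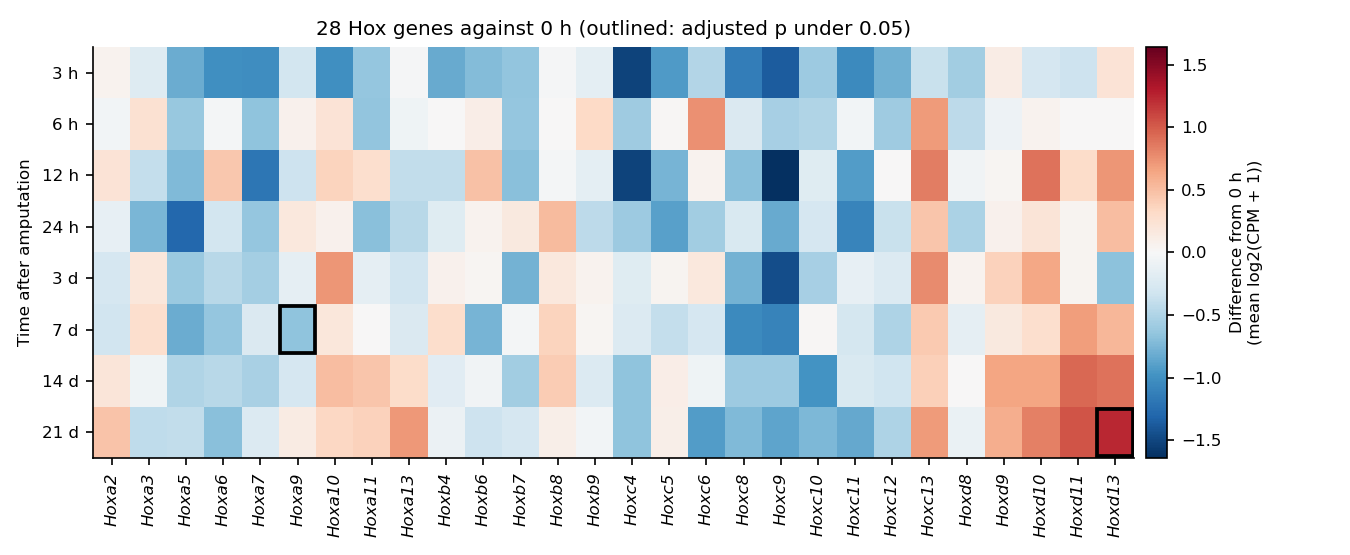
Difference of each time from 0 h for the 28 Hox genes tested, as mean log2(CPM + 1), with red above and blue below 0 and calls at an adjusted p under 0.05 outlined. Hoxa9 at 7 d (-0.66) and Hoxd13 at 21 d (1.23) are outlined, and the 3 h row is mostly blue, with 25 of 28 genes below 0.

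Hoxd13 had 11.9, 13.6 and 16.7 CPM in the 0 h mice. It had 11.0, 17.3 and 23.2 CPM at 3 h and 11.3, 13.3 and 17.8 at 6 h. These first times overlapped with 0 h. At 12 h the values were 21.0, 24.7 and 25.7 CPM, all above the 0 h mice, and at 24 h they were 14.7, 19.9 and 28.5. At 3 d they were 5.88, 8.98 and 11.1 CPM, all below the 0 h mice, with the lowest mean of the course (8.66 CPM). The highest of them was just above the lowest 3 h mouse (11.0). By its mean the gene was thus at its lowest on the third day, between 2 times with higher values. At 7 d the 6 mice ran from 17.0 to 26.6 CPM with a median of 20.1, and the 14 d mice had 25.3, 26.1 and 29.0. At 21 d it reached 25.7, 32.6 and 47.0 CPM. At each of these 3 late times every mouse was above every 0 h mouse.

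At 21 d Hoxd13 had 35.1 ± 10.9 CPM (SD, n = 3). The level at 0 h had been 14.1 ± 2.44 (SD, n = 3), so that the log2 difference was 1.32 (standard error 0.29, edgeR adjusted p = 0.00863). Among the November to January mice, which include all of 21 d and 2 of 0 h, the difference of mean log2(CPM + 1) was 1.21 (1.23 over all dates). The estimates at 14 d (0.93, adjusted p = 0.121), 7 d (0.58, adjusted p = 0.297), 12 h (0.76, adjusted p = 0.534) and 3 d (-0.67, adjusted p = 0.652) did not pass in edgeR. The call at 21 d was lost without 0 h replicate 1 (1.2, edgeR adjusted p = 0.0917), 0 h replicate 3 (1.30, adjusted p = 0.0578) or 21 d replicate 1, the highest mouse (1.05, adjusted p = 0.158). The call over the whole course held under all 30 removals of a single mouse, with an adjusted p of at most 0.00392.

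**Figure D3:**
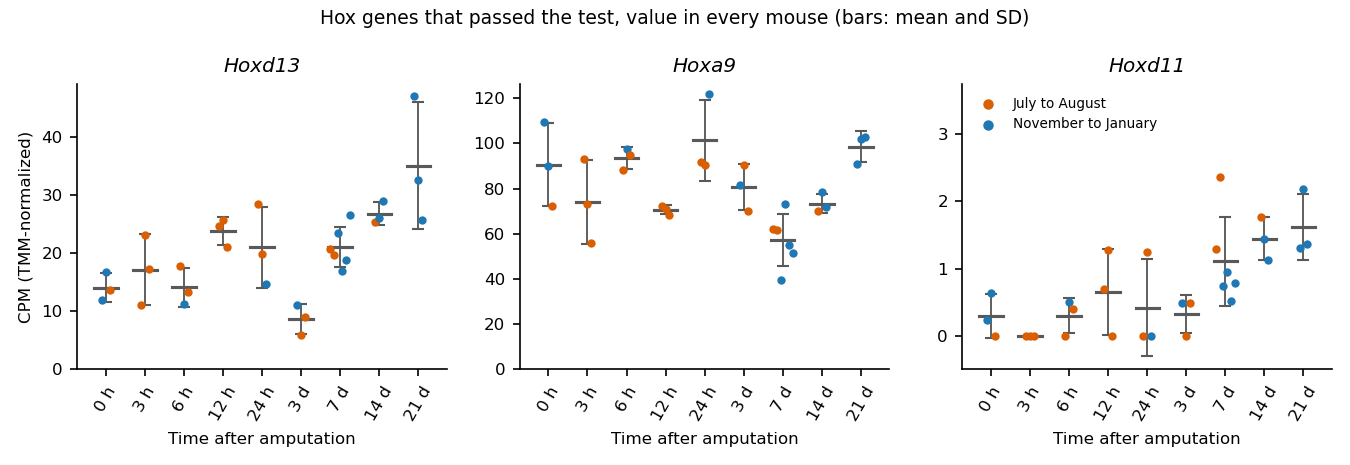
CPM of Hoxd13, Hoxa9 and Hoxd11 in every mouse at the 9 times, with points coloured by the dates in the sample titles and bars for mean and SD (n = 3, and 6 at 7 d). By their means, Hoxd13 is lowest at 3 d (5.88 to 11.1 CPM) and highest at 21 d (25.7 to 47.0), and Hoxa9 is lowest at 7 d. Hoxd11 has no count at 3 h.

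In the comparison of late with early times, the 12 late mice had 17.0 to 47.0 CPM of Hoxd13 (median 25.5) and the 12 early mice 11.0 to 28.5 (median 18.9). The groups overlapped, and 3 late mice were above every early one. The log2 difference was 0.53 (standard error 0.15, edgeR adjusted p = 0.0127). By dates, the difference of mean log2(CPM + 1) was 0.15 in July to August (3 late and 10 early mice) and 0.97 in November to January (9 and 2), so that its size in the earlier dates was small. The call held with the dates as a covariate (0.55, adjusted p = 0.0457).

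The promoter of Hoxd13, the Hox gene called over the course, at 21 d and late against early, is shown as the 250 bases before the RefSeq start (GRCm38.p6, chr2:74667975-74668224, + strand), with TATAAA in capitals.
Hoxd13 promoter: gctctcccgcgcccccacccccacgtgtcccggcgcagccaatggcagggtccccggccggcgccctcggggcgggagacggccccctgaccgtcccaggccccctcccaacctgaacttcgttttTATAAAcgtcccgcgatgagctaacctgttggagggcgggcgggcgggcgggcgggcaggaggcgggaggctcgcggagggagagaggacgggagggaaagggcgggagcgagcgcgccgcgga
Its whole window, which runs 50 bases past the start, holds 37 CpG dinucleotides, against a median of 15 over the 23 promoters found for 21 Hox genes and of 7 over 32851 mouse promoters. TATAAA, searched on both strands, occurs in 3 of the 23 Hox promoters (13.0%), Hoxd13's among them, and in 13.6% of all. The share of Hox promoters with this motif was near that of all promoters.

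Hoxd11, which with Hoxa11 shapes the middle limb segment in the embryo, was close to the limit of detection. It had 0, 0.240 and 0.640 CPM at 0 h, and no count in any of the 3 mice at 3 h. At 6 h it had 0, 0.392 and 0.507 CPM, at 12 h 0, 0.689 and 1.27, at 24 h 0, 0 and 1.25, and at 3 d 0, 0.486 and 0.491. Mice without a count were present at every time up to 3 d. From 7 d on there was none, with 0.514 to 2.36 CPM at 7 d (median 0.871, n = 6), 1.13, 1.44 and 1.77 at 14 d, and 1.30, 1.37 and 2.19 at 21 d. Depth differed as well. The mice without a count had 3167625 to 6446428 expected counts over all genes, and the mice from 7 d on had 3502002 to 16277816. The part of depth in the zeros was not tested.

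The 12 late mice had 1.32 ± 0.564 CPM of Hoxd11 (SD, n = 12) against 0.343 ± 0.492 (SD, n = 12) in the 12 early mice, of which 7 had no count. The groups overlapped, with 7 late mice above every early one. The counts behind this were few, at 135 in all late mice together and 26.6 in all early ones. The fitted log2 difference was 2.76 (standard error 0.76, edgeR adjusted p = 0.0135), a size that depends on the prior count since 3 h is at 0, and on the log2(CPM + 1) scale it was 0.83. It was 1.1 within the July to August mice and 0.78 within the November to January mice. The gene was not tested with a filter on a mean of 1 CPM or without 7 d replicate 2, its highest mouse, when it dropped below the filter on low counts. In the main fit it passed the filter on low counts through late mice alone. Its highest values were in 7 d replicate 2 (2.36 CPM), 21 d replicate 2 (2.19) and 14 d replicate 1 (1.77). The call between late and early times is therefore not independent of the filter, and gives no separate support for a rise.

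The other Hoxd genes of the same stretch were not called. From early to late the log2 difference was 0.44 for Hoxd10 (standard error 0.35, edgeR adjusted p = 0.423), 0.32 for Hoxd9 (0.55, adjusted p = 0.742) and 0.41 for Hoxd8 (0.34, adjusted p = 0.439). Hoxd12 did not pass the filter on low counts, and 11 of the 24 early and late mice had no count of it. Summed over the 8 genes, the Hoxd cluster had 17.9 to 26.3 TPM at 0 h, 30.6 to 53.8 at 12 h, 36.0 to 39.9 at 14 d and 32.5 to 51.0 at 21 d. The ranges of 12 h, 14 d and 21 d lay above that of 0 h. Hoxd13 itself had 9.99 to 14.1 TPM at 0 h, 19.1 to 25.8 at 12 h, 21.8 to 25.4 at 14 d and 20.7 to 36.1 at 21 d.

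Some cell type markers changed over the same times as Hoxd13 and Hoxd11. Between late and early times, 15.4% of all genes were called. The 9 fibroblast markers summed to 5811 to 11198 CPM at 0 h, 38302 to 45449.8 at 14 d and 36531 to 63125 at 21 d, and 6 of the 9 were called between late and early times (5 higher, 1 lower). The 7 osteoblast and osteocyte markers summed to 148 to 398 CPM at 0 h, 726 to 1661 at 7 d and 2902 to 3768 at 21 d, with 4 of 7 called, all higher. The sums of both lists were above all 0 h mice at 14 d and 21 d, but not all members were called. Of all genes, 1.61% were called at 14 d and 1.94% at 21 d. At 14 d the called members were the collagen genes Col1a1, Col1a2 and Col3a1 of the fibroblast list (list median of the log2 differences 0.70) and Ibsp, Sp7 and Alpl of the osteoblast list (1.10). At 21 d Lum joined the collagens (list median 0.65), and Ibsp, Sp7 and Alpl were again called (0.90). The fibroblast marker that was lower late than early was Dcn. The nail and hair matrix markers, 10 of 11 listed, summed to 4178 to 7861 CPM at 0 h and 11086 to 28219 at 21 d, with 0 of 10 called by edgeR at 21 d (7 at an unadjusted p under 0.05) and 0 between late and early times (2 unadjusted). Of the 7 basal and spinous keratinocyte markers, Dsg3 and Krt5 were called between late and early times, both lower. Of the 8 leukocyte markers 6 were called, all higher late. None of these markers was at 0 in all mice, and their part in the Hoxd13 and Hoxd11 results was not tested.

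**Figure D4:**
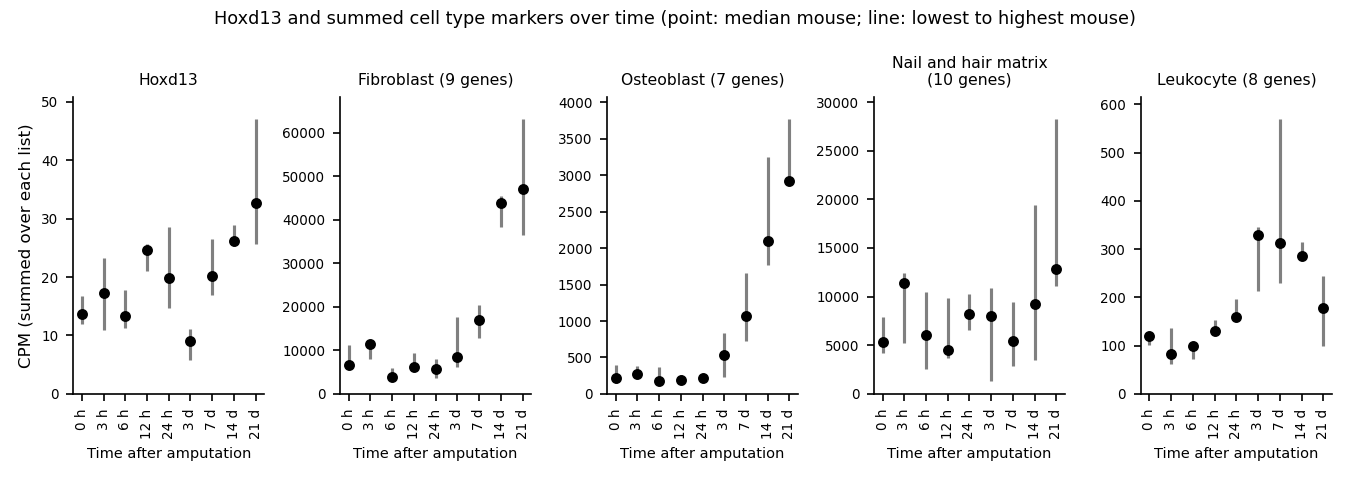
Hoxd13 in CPM and the summed CPM of 4 cell type marker lists at the 9 times, with the median mouse as a point and a line from the lowest to the highest mouse (n = 3, and 6 at 7 d). The fibroblast and osteoblast sums are highest at 14 d and 21 d, as Hoxd13 is. At 12 h, when Hoxd13 was at 21.0 to 25.7 CPM and not called against 0 h, they are 6273 to 9438 and 166 to 261 CPM. The relation of the lists to Hoxd13 was not tested.

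Hoxa9 was called in the opposite direction, at 7 d. It had 72.5, 89.9 and 109.5 CPM at 0 h, 56.0, 73.1 and 93.2 at 3 h, and 88.3, 95.1 and 97.4 at 6 h. At 12 h it had 68.5, 70.9 and 72.4 CPM, at 24 h 90.3, 91.7 and 122, and at 3 d 70.2, 81.8 and 90.5. Up to 3 d, all times but 12 h overlapped with 0 h. At 7 d the 6 mice ran from 39.5 to 73.3 CPM with a median of 58.3, and 5 of them were below every 0 h mouse. It had 70.1, 71.7 and 78.3 CPM at 14 d and 90.9, 102 and 103 at 21 d, which was again within the range of 0 h.

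At 7 d Hoxa9 had 57.2 ± 11.4 CPM (SD, n = 6) and at 0 h 90.6 ± 18.5 (SD, n = 3), with a log2 difference of -0.67 (standard error 0.17, edgeR adjusted p = 0.0252). The difference of mean log2(CPM + 1) was -0.22 within the July to August mice (2 at 7 d, 1 at 0 h) and -0.88 within the November to January mice (4 and 2). The call was lost without the 3 left-foot mice (-0.58, edgeR adjusted p = 0.0772), without 0 h replicate 1, the highest of its group (-0.49, adjusted p = 0.342), and without 0 h replicate 2 (-0.64, adjusted p = 0.118). With each single mouse left out, the F-test over the whole course stayed below the threshold (adjusted p at most 0.0306). The leukocyte markers, 8 of 8 tested, summed to 229.6 to 569 CPM at 7 d against 101 to 123 at 0 h, and 4 of them were called higher. Of all genes, 2.34% were called at 7 d. Other lists moved at that time too. The fibroblast markers summed to 12816 to 20503 CPM, with 2 of 9 called, both higher (Col3a1 and Col1a1), and the osteoblast markers to 726 to 1661, with Ibsp called higher and Bglap2 lower. The 5 endothelial markers summed to 167 to 265 CPM at 7 d against 113 to 130.4 at 0 h, with Cdh5 called higher. The part of these markers in the Hoxa9 result was not tested.

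The other abundant Hox genes did not pass the test for time. Hoxc13 had 86.9 ± 18.3 CPM at 0 h, 77.0 ± 45.0 at 3 h, 155 ± 20.4 at 12 h, 155 ± 59.1 at 3 d and 142 ± 26.9 at 21 d (SD, n = 3 each). All 3 mice at 12 h and all 3 at 21 d were above every 0 h mouse, but the estimates of 0.83 at 12 h (standard error 0.37, edgeR adjusted p = 0.619) and 0.70 at 21 d (0.37, adjusted p = 0.630) did not pass. Hoxa10 ran between means of 5.47 ± 4.76 CPM at 3 h and 16.3 ± 9.59 at 3 d, Hoxb9 between 7.71 ± 2.65 at 24 h and 13.7 ± 5.01 at 6 h, and Hoxc11 between 3.04 ± 1.29 at 24 h and 7.41 ± 2.26 at 0 h (SD, n = 3 each). Hoxc12 stayed between 2.75 ± 1.58 CPM at 6 h and 4.41 ± 1.40 at 12 h. None of these 5 genes was called in any comparison of times.

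Hoxa7, Hoxb7 and Hoxc10 differed between the dates in the sample titles. This was seen in the values and then tested, with time and dates in 1 edgeR fit over all genes, in which 24.1% of all genes and 3 of the 28 Hox genes were called. The share of Hox genes was below that of all genes, and Hoxa7, Hoxb7 and Hoxc10 are given for what they bear on, the comparison of times. Hoxa7 had 17.2 to 37.3 CPM (median 27.9) in the 16 July to August mice and 30.9 to 69.3 (median 57.6) in the 14 November to January mice. Within a time, the difference was 0.93 on the log2 scale (standard error 0.14, edgeR adjusted p = 8.39e-06). At each of the 6 times that hold both dates, every November to January mouse was above every July to August mouse, as with 27.5 and 28.0 against 50.3 to 68.3 CPM at 7 d.

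Hoxb7, the other group 7 gene, had 1.21 to 5.26 CPM (median 2.80) in July to August and 3.35 to 11.4 (median 5.42) in November to January. Within a time it was higher by 1.25 on the log2 scale in the later dates (standard error 0.29, edgeR adjusted p = 0.00162). Hoxc10 had 4.92 to 17.1 CPM (median 9.41) and 4.35 to 29.0 (median 15.1), with a log2 difference of 0.83 (standard error 0.23, adjusted p = 0.00944). Both genes were also ordered by dates at all 6 times with both. For Hoxc10 at 0 h the margin was below rounding, with 13.3 CPM in replicate 1 (November to January) and 13.3 in replicate 3 (July to August). Hoxd13 (-0.02, adjusted p = 0.936), Hoxa9 (0.11, adjusted p = 0.524) and Hoxd11 (-0.26, adjusted p = 0.851) were not called between the dates. The libraries of the later dates were deeper, and the part of depth was not tested.

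**Figure D5:**
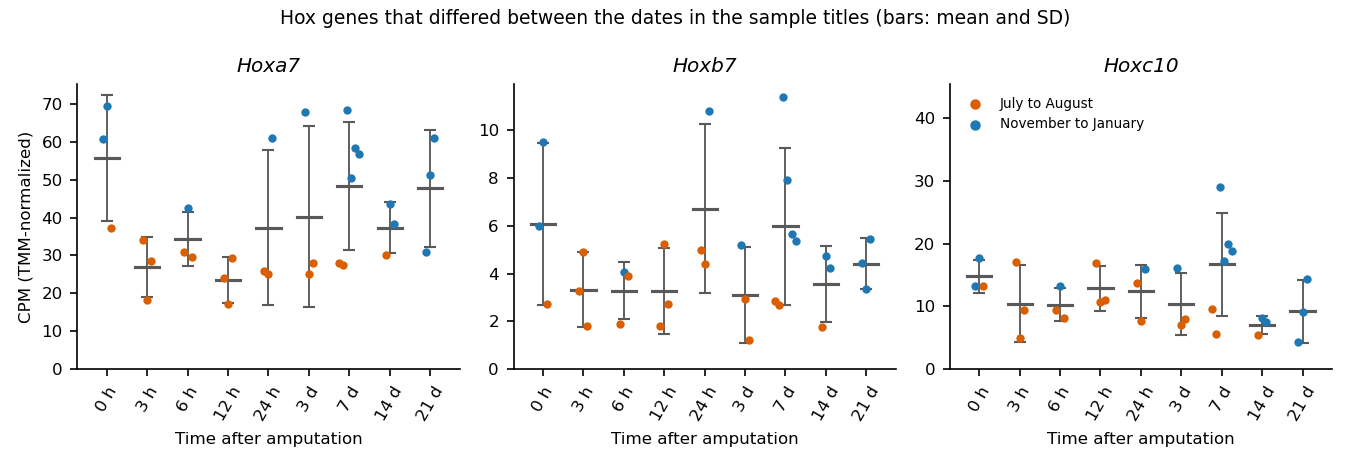
CPM of Hoxa7, Hoxb7 and Hoxc10 in every mouse at the 9 times, coloured by the dates in the sample titles, with bars for mean and SD (n = 3, and 6 at 7 d). At the 6 times with both dates, which are all but 3 h, 12 h and 21 d, every November to January mouse lies above every July to August mouse for each gene. For Hoxc10 at 0 h the margin is below rounding, at 13.3 CPM in a mouse of either dates.

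Between late and early times, Hoxa7 had a log2 difference of 0.56 (edgeR adjusted p = 0.0577), which became -0.01 with the dates as a covariate (adjusted p = 0.989). Within July to August it was 0.14 and within November to January -0.03, on the log2(CPM + 1) scale. At 3 h and 12 h, which hold earlier dates alone, Hoxa7 was below all 0 h mice in 3 of 3 mice (-1.05, edgeR adjusted p = 0.320, and -1.25, adjusted p = 0.384). Against the 1 July to August mouse of 0 h, these differences of mean log2(CPM + 1) were -0.50 and -0.67, from -1.02 and -1.19. Neither passed the test.

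At 3 h the Hox genes as a set read low. Summed over the 38 genes, the 3 mice had 137, 212 and 291 TPM, against 255, 346 and 350.0 at 0 h, and 9 of the 28 genes tested (32.1%) had their lowest mean at 3 h, beside 18.2% of all genes. The median difference from 0 h was -0.61 (log2(CPM + 1)) over the 28 genes, with 25 below 0, and -0.05 over all 13793 genes, with 54.4% below 0. Hoxd11, with no count at 3 h, is included at its value of 0 on that scale. In the edgeR estimates, 22 of the 28 genes were below 0 at 3 h (median -0.70), against a median of -0.01 over all genes. The lowest sum belonged to 3 h replicate 3, the mouse of lowest depth, in which 19 of the 38 genes had no count. Without that mouse the median on the log2(CPM + 1) scale was -0.46 with 21 genes below 0. Against the 1 July to August mouse of 0 h it was -0.26 with 17 below 0. At the other times the median over the Hox genes lay between -0.29 and -0.04, and all of these comparisons share the 0 h mice. From the early to the late mice the median was 0.26, with 20 of 28 genes above 0, beside -0.01 over all genes, with 49.0% above 0. It was smaller within the dates, at 0.14 with 17 of 28 above 0 in July to August and at 0.05 with 15 of 28 in November to January.

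Hox proteins bind DNA together with TALE homeodomain partners of the Pbx, Meis and Pknox families. Of 10 such genes tested, 0 were called over the course or in any comparison by edgeR, with 2 at an unadjusted p under 0.05 between late and early times, where DESeq2 also called 0. Of these, Meis3 had a log2 difference of 0.88 (edgeR adjusted p = 0.108). Polycomb proteins keep silent Hox genes silent through methylation of histone H3. Of 19 Polycomb genes, Cbx6 was called over the course, Ezh1 was lower at 24 h (log2 difference -0.86, edgeR adjusted p = 0.0325), and 4 were called between late and early times. Of these, Cbx6 (0.49), Pcgf2 (0.36) and Ezh2 (0.32), the main H3K27 methyltransferase, rose, and Eed, its core partner, fell by 0.44. Trithorax proteins and the H3K27 demethylases act against this silencing. Of 13 such genes, Kdm6b, a demethylase, was called over the course, while late against early Psip1 rose by 1.18 and Ash1l fell by 0.34.

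Among the neighbours and activators of the clusters, 5 of 10 genes could be tested. Rarg, a retinoic acid receptor, fell by 0.54 at 7 d (edgeR adjusted p = 0.0341), and Gmnn, which holds back DNA replication and Hox activation, rose by 0.77 from early to late (adjusted p = 0.0287). Of 6 limb factors tested, 0 were called by edgeR in any comparison. Between late and early times 2 had an unadjusted p under 0.05, Pitx1, a hindlimb factor, among them (1.05, edgeR adjusted p = 0.0815), and DESeq2 called 1. With the dates as a covariate, 2 Polycomb genes, 1 limb factor and none of the Trithorax genes were called between late and early times by edgeR. The share of all genes called in that fit is not given here, so these counts have no background beside them. In the main fit, without the covariate, the share of called genes among these lists was 4 of 19, 2 of 13, 1 of 5, 0 of 10 and 0 of 6 between late and early times, beside the 15.4% of all genes.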

How the data were processed

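Polyadenylated RNA of 30 digits was sequenced as single reads of 65 bases. The authors used Bowtie against the Ensembl v75 annotation and RSEM for the estimates (version 1.2.3 per the labels, with CASAVA 1.8.2 and mm10). The expected counts deposited per gene and mouse were not normalized, the TPM deposited are relative to all genes of a mouse, and the authors' averages per time are a signal, the mean of TPM scaled by median-by-ratio factors. Each column was matched to a mouse by its title.

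Expected counts, of which 78.1% were whole within a tolerance of 1e-09, were rounded and tested with edgeR 4.0.16 in R 4.3.3. Genes were filtered by filterByExpr with time as the group (13793 of 20321 genes kept), normalized by TMM (factors 0.874 to 1.148), and fitted by quasi-likelihood with time and no covariate over all 30 mice. Benjamini-Hochberg adjustment ran over all genes tested, with a threshold of 0.05. CPM are the rounded counts over TMM-scaled library sizes. The pseudocount of log2(CPM + 1) was 1. The fits were tested on simulated data. DESeq2 1.42.0 was an alternative. Plots and tables used Python with pandas and matplotlib 3.10.9.

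Named genes are all Hox genes called in a comparison of times, the 10 of highest median TPM and those of lowest F-test p up to 5, plus, of each list of partners, the called members. The genes named for the dates, and Hoxc5, Hoxb8, Hoxd8, Hoxd9, Hoxd10, Hoxd12, Hoxa3, Hoxa11, Hoxb4, Hoxb6, Meis3 and Pitx1, were named after their values were seen. The members, lists and tests were chosen with earlier results of these data known. The comparison of the dates was added after the data were seen.

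Depth was 3167625 to 16277816 expected counts. In all 39 pairs of mice of 1 time, counts differed by more than sampling noise (9.8 to 94.7 for chi-square divided by its degrees of freedom). Counting limits ignore PCR copies. Replicate numbers follow the order of accession and pair nothing. A code in the titles recurs with its date in 1 mouse of 0 h and 1 of 12 h, which the labels count as separate mice. Alternatives were other normalization, filters, thresholds and tests, the dates as a covariate, removal of left-foot mice, smaller fits and each mouse left out in turn. Among the sequences, 1 is not reported here.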

Additional observations from a re-analysis of the deposited data

Results flagged for a closer look

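Hoxb8, a gene of the trunk, was the one Hox gene with a mouse set apart from the other 5 at 7 d. That mouse, a left foot with November to January dates, had 3.88 CPM, against 0 to 0.949 in the others, a gap of 0.755 of the whole range, past Dixon's 95% critical value for 6 samples. The same library lacked any count of 20 of the 38 Hox genes. Of 28 genes examined this way, 1.4 would be expected past the value by chance.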

How the results depend on the processing

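No paired analysis was possible because the replicate numbers follow accession order, and the codes in the titles, whose meaning is not given, recur in at most 1 mouse of each group in any comparison made. Of the 14 counts of called or expressed Hox genes and listed partners, 87 of 99 values under alternatives other than leaving out a mouse, and 379 of 390 with 1 mouse left out, stayed within 1.5 times. At a threshold of 0.01, 1 Hox gene was called over the course, 1 against 0 h (0 at 7 d) and 0 between late and early times. Without the left-foot mice 1 was called against 0 h, with 0 at 7 d. In fits of the 2 times alone, 0 were called at 7 d and 2 at 14 d (Hoxc10 at -1.07 and Hoxd13 at 0.91). Between late and early times, DESeq2 called 4 (with Hoxc5 and Hoxa7) and a mean of at least 1 CPM left 1. With 1 mouse left out, the count ran from 0 to 2 against 0 h, 0 to 1 at 7 d, 0 to 1 at 21 d, 2 to 4 between late and early times and 3 to 4 between dates. The partner lists held 2 calls over the course, 4 with DESeq2 and 4 with the dates as a covariate. Shares of all genes called under these alternatives are not given, so a higher count there is not read as a result about the members. Hoxa7 between late and early times went from 0.56 to -0.01 with the dates as a covariate. The cause of these shifts was not tested, apart from fewer genes or mice in the fit where the alternative removes them. Of the 38 genes, 10 did not pass the filter on low counts and could not be tested. The part of depth in this was not tested.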
